A study of Mus musculus with 12 samples.

Results

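Ino80 peaks lying in the most densely occupied megabases of the mouse autosomes are described here. They come from a list of peaks called on 1 Ino80 chromatin immunoprecipitation sequencing (ChIP-seq) library of J1, an embryonic stem cell line from mouse, and the labels name no short hairpin RNA, transgene or other agent for this sample. Cells were fixed with formaldehyde and their chromatin was sheared and pulled down with an antibody to Ino80. The series holds 12 samples in 12 groups of 1, and the remaining 11 (the input of this ChIP, and the Oct4, Klf4, Med1, polymerase II and input libraries of cells with a non-targeting or an Ino80 hairpin) were not analysed here. The peaks were chosen by their own crowding and width. Each autosome was divided into bins of 1 Mb, bins with the midpoints of at least 20 peaks were kept and are called dense below, and the peaks in them that measured 1200 to 9800 bp were taken. This gave 2059 peaks, 16.2% of the 12749 listed and 16.4% of the 12542 on autosomes.

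Ino80 is the ATPase of the INO80 complex, a large assembly that repositions nucleosomes and acts in transcription, DNA replication and DNA repair. Its subunits include the actin-related proteins Actr5 and Actr8, the helicase-like pair Ruvbl1 and Ruvbl2, and the zinc finger protein Yy1. In embryonic stem cells the complex is known for occupying promoters of active genes, including genes of the pluripotency network. The genes under the peaks described here were not identified, since no annotation or sequence of the build of the list (mm9) was used. Regions are therefore named by their mm9 coordinates, and no sequence is shown.

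The list gives only the position of each peak, with no read count, score or fold, so the depth behind a peak is unknown. With 1 library there is no replicate error. Intervals below are exact 95% Clopper-Pearson intervals of shares, or order-statistic intervals of medians. They cover counting error only and treat neighbouring peaks as independent. The number of peaks per bin chose the members, and distances between peaks follow from it. Width and crowding are both outputs of the same caller. Every comparison with other peaks is for these reasons a description without a test.

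Dense megabases were the far end of a continuous distribution. Of the 2412 autosomal bins from the first listed peak of a chromosome to its last, 90 held 20 or more peaks, a background share of 3.73% that the rule itself fixed. All autosomal bins had a median of 3 peaks, and 432 had none. The 90 dense bins held 2294 peaks, 18.3% of those on autosomes (interval 17.6 to 18.98%), and 22.4% of the autosomal sequence under peaks. They averaged 25.5 peaks per Mb, against 4.41 in the remaining bins. No gap in the distribution separated dense from other bins: 8 bins stood at 20 peaks and 15 at 19.

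**Figure D1:**
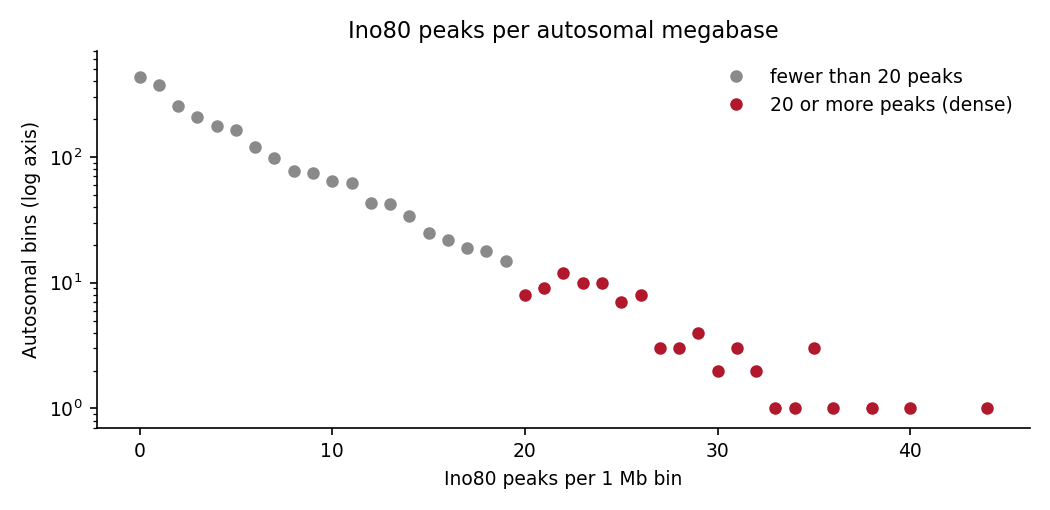
Number of autosomal 1 Mb bins (log axis) against the number of Ino80 peaks in a bin. Red points are the 90 dense bins with 20 to 44 peaks, and grey points are bins below the limit, among them 432 with no peak.

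Bins just inside and just outside that limit are given for comparison. Those with exactly 20 peaks, of which the first 5 in genome order lay at 173 to 174 Mb of chromosome 1, 122 to 123 Mb of chromosome 6, 4 to 5 and 26 to 27 Mb of chromosome 7 and 107 to 108 Mb of chromosome 9, held 146 members with a median width of 4400 bp (interval 4000 to 4800 bp). Those with 19, beginning with 152 to 153 Mb of chromosome 2, 31 to 32, 122 to 123 and 138 to 139 Mb of chromosome 5 and 125 to 126 Mb of chromosome 6, held 264 peaks of the same width range with a median of 4000 bp (3800 to 4400 bp). The median distance to the nearest peak was 7.1 kb in the first set and 9.8 kb in the second.

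The width limits also cut through a continuum. In dense bins 26 peaks measured 1200 bp and were kept, and 17 measured 1000 bp and were not. The first kept at that edge lay on chromosome 1 from 134921001 to 134922200, and on chromosome 4 from 132469201 to 132470400, 132478801 to 132480000, 132588201 to 132589400 and 133616201 to 133617400. The first left out lay on chromosome 4 from 140909201 to 140910200, chromosome 7 from 30857201 to 30858200 and from 87298401 to 87299400, chromosome 8 from 87322401 to 87323400 and chromosome 9 from 44863001 to 44864000. At the upper edge 8 peaks measured 9800 bp and 12 measured 10000 bp. The first kept were on chromosome 3 (88210601 to 88220400), chromosome 5 (136383601 to 136393400), chromosome 6 (124687401 to 124697200), chromosome 7 (134335201 to 134345000) and chromosome 10 (80136601 to 80146400). The first left out were on chromosome 4 (116791401 to 116801400 and 132669201 to 132679200), chromosome 6 (124863401 to 124873400) and chromosome 7 (4738201 to 4748200 and 30086201 to 30096200).

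Broad peaks were common beside the members. Of the 2294 peaks in dense bins, 207 exceeded 9800 bp, 9.02% (interval 7.88 to 10.3%), against 3.88% (3.52 to 4.28%) of the 10248 autosomal peaks elsewhere. These broad peaks made up 24.3% of the sequence under peaks in dense bins, and 83 of the 90 bins had at least 1. Peaks under 1200 bp went the other way, at 28 or 1.22% (0.813 to 1.76%) in dense bins and 2.81% (2.50 to 3.15%) elsewhere. Across the 90 bins the number of broad peaks went with the number of peaks at Pearson's r = 0.51 but Spearman's rho = 0.27. Both counts were taken from the same list, and the broad peaks of a bin are counted among its peaks. A positive relation is therefore partly built in, and the bins were themselves chosen by their number of peaks. The r and rho cannot decide whether broad peaks make up more of the peaks in denser bins. The bins with 44 and 40 peaks held 9 and 10 broad ones, those with 38 and 36 held 3 each, and the median was 2.

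The densest bin lay at 80 to 81 Mb of chromosome 10 and held 44 peaks, 35 of them members and 9 of them broad. Its members had a median width of 4800 bp. The widest ran from 80136601 to 80146400 (9800 bp, 5.6 kb from its nearest peak) and the narrowest from 80213201 to 80214600 (1400 bp, 2.2 kb from its nearest). The bin before it, at 79 to 80 Mb, was dense as well with 30 peaks, while the bin after it had 11. Neighbouring peaks of this bin were at most 73.8 kb apart.

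The second bin, at 52 to 53 Mb of chromosome 7, had 40 peaks but 30 members, because 10 of its peaks were broad, the most of any dense bin. Its widest members were a pair of 8600 bp, from 52334201 to 52342800 and from 52657401 to 52666000. Its narrowest, from 52773201 to 52775000 (1800 bp), had a peak 1.4 kb away on either side. The bins around it held 17 and 7 peaks, so it stood alone as a dense megabase.

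The third bin, at 133 to 134 Mb of chromosome 4, equalled the first in members, with 35 among 38 peaks. Its widest members lay from 133307401 to 133316200 and from 133451401 to 133460200 (8800 bp each). Of its 2 narrowest, 1200 bp each, the one from 133616201 to 133617400 had 39.8 kb of peak-free sequence before it and 40.4 kb after it, and the one from 133824001 to 133825200 was 11.2 kb from its nearest peak. Narrow members thus occurred both tight against other peaks and well apart from them. The fourth bin, at 79 to 80 Mb of chromosome 15, had 36 peaks and 33 members, with the widest from 79037801 to 79047600 (9800 bp) and the narrowest from 79073001 to 79074400 (1400 bp).

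Bins with 35 peaks each were found on chromosomes 7, 11 and 17 and differed in their makeup. At 134 to 135 Mb of chromosome 7 there were 28 members and 6 broad peaks, with the widest member from 134335201 to 134345000 (9800 bp) and the narrowest from 134092001 to 134093400 (1400 bp). At 97 to 98 Mb of chromosome 11 there were 32 members and 3 broad peaks, with members from 97556601 to 97566200 (9600 bp) and from 97814001 to 97815400 (1400 bp) at the extremes. At 35 to 36 Mb of chromosome 17 there were 31 members and 2 broad peaks. There the widest member, from 35376601 to 35384800 (8200 bp), stood at the edge of 237.4 kb without a peak, the longest between neighbouring peaks of a bin in the 10 densest bins, and the narrowest ran from 35868201 to 35869400 (1200 bp).

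The remaining bins of these 10 were on chromosomes 19, 5 and 7. The bin at 5 to 6 Mb of chromosome 19 had 34 peaks and 32 members and lay between dense bins of 26 and 24 peaks. Its widest member ran from 5387001 to 5396600 (9600 bp). Its 2 narrowest measured 1600 bp, with the nearest peak at 1.0 kb for the one from 5609201 to 5610800 and at 23.6 kb for the one from 5876801 to 5878400. The bin at 115 to 116 Mb of chromosome 5 had 33 peaks and 31 members, from 115616601 to 115624600 (8000 bp) at the widest and from 115392001 to 115393200 (1200 bp) at the narrowest. The bin at 148 to 149 Mb of chromosome 7 had 32 peaks and 28 members, and its neighbours held only 7 and 5 peaks. Its widest member ran from 148273201 to 148282800 (9600 bp), and its narrowest were those from 148093401 to 148095000 and from 148414001 to 148415600 (1600 bp each). A bin at 76 to 77 Mb of chromosome 15 also had 32 peaks and was placed after it by chromosome order.

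**Figure D2:**
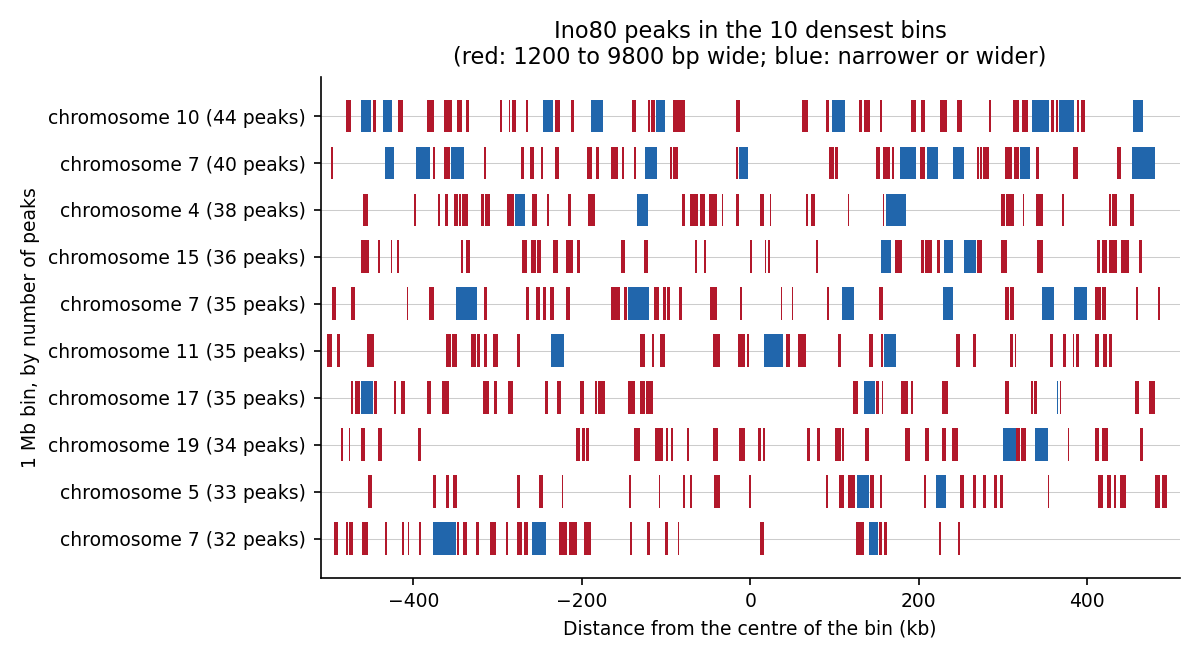
Ino80 peaks drawn to scale in the 10 bins with the most peaks, as distance from the centre of each bin in kb. Red bars are members (1200 to 9800 bp), blue bars are narrower or wider peaks; the chromosome 17 bin shows its peak-free stretch of 237.4 kb around its centre.

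Members had a median width of 4000 bp (interval 4000 to 4200 bp, quartiles 2800 and 6000 bp). The 9562 other autosomal peaks of the same width range had a median of 3400 bp (3400 to 3400 bp, quartiles 2400 and 4800 bp). Of the members, 16.7% measured 6200 to 8000 bp and 6.36% measured 8200 to 9800 bp, against 9.20% and 3.91% of the others. Widths of 1200 to 2000 bp made up 11.7% of members and 18.0% of the others.

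At like distances to the nearest peak, the medians differed by 200 bp up to 20 kb and by more beyond it. With the nearest peak under 2 kb away, the median was 4400 bp for members (4000 to 4800 bp, 457 peaks) and 4200 bp for others (4200 to 4400 bp, 967 peaks). At 2 to 5 kb it was again 4400 bp (4000 to 4600 bp) and 4200 bp (4000 to 4200 bp), and at 5 to 20 kb it was 4000 bp (3800 to 4200 bp) and 3800 bp (3600 to 3800 bp). These medians lay 1 step of the 200 bp grid apart, with overlapping or touching intervals. At 20 to 50 kb they were 4000 bp (3600 to 4200 bp, 351 peaks) and 3400 bp (3400 to 3600 bp, 2034 peaks), and at 50 kb or more 3400 bp (3000 to 4000 bp, 97 peaks) and 3000 bp (3000 to 3000 bp, 3321 peaks). The intervals beyond 20 kb touched as well. Each class still pools unlike distances. Outside dense bins, the 1831 peaks with a neighbour under 5 kb had a median width of 4200 bp (4000 to 4400 bp). Members had 4400 bp both under 2 kb and at 2 to 5 kb, and 4000 bp over all distances.

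**Figure D3:**
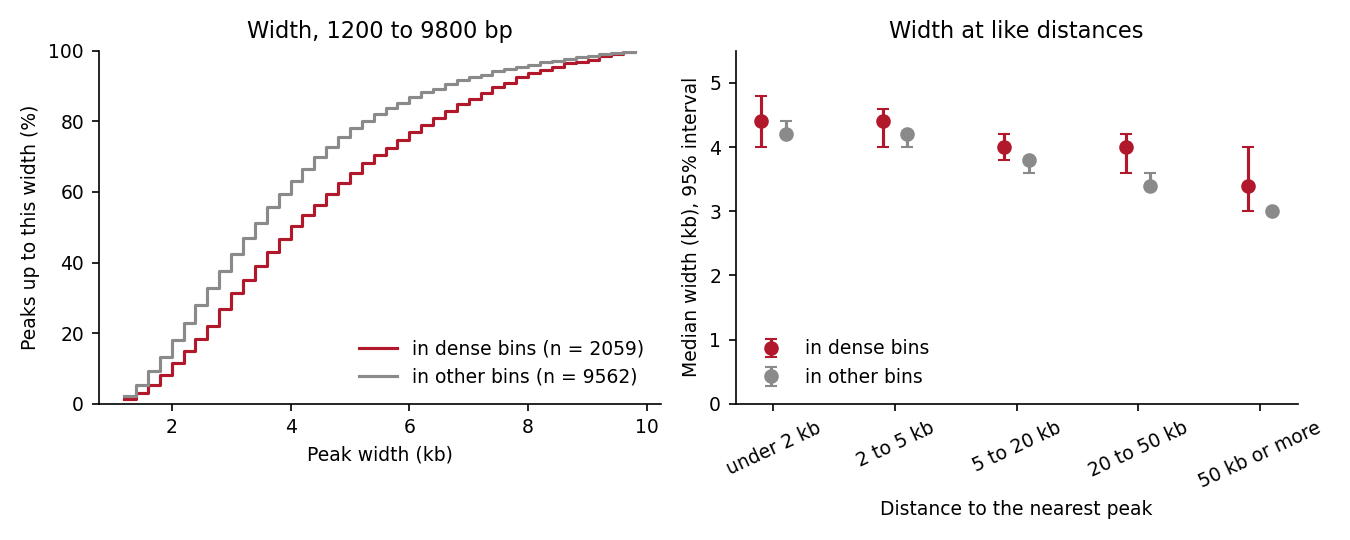
Left, the share of peaks up to a given width (kb) for members (red, n = 2059) and other autosomal peaks of the same range (grey, n = 9562). Right, median width (kb) with its 95% order-statistic interval by distance to the nearest peak; the red medians lie 0.2 to 0.6 kb above the grey ones.

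Single members measured 4473 ± 2073 bp (mean and SD over 2059 peaks), and the medians of bins 4124 ± 585 bp (SD over 90 bins). A median over many members varies less than single widths do, so the smaller SD does not show that bins were alike. The median member width of a bin ran from 2600 bp at 74 to 75 Mb of chromosome 8 to 5400 bp at 76 to 77 Mb of chromosome 15, and 50% of bins lay between 3800 and 4575 bp. It hardly followed the number of peaks in the bin (Pearson's r = 0.10, Spearman's rho = 0.08 across 90 bins). Widths of neighbouring members were only weakly related, with r = 0.05 and rho = 0.05 across 1770 pairs of members next to each other in a bin, compared with 0.12 for both measures across 7336 such pairs in other bins. The pairs of other bins were further apart, and at like distances Pearson's r was 0.063 for members and 0.072 for others under 5 kb, 0.073 and 0.089 at 5 to 20 kb, and 0.018 and 0.10 at 20 kb or more.

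Members stood a median of 7.0 kb from the nearest peak (interval 6.4 to 7.6 kb), and other peaks of the width range 26.0 kb (24.8 to 27.0 kb). A peak under 5 kb away was found for 847 members, 41.1% (39.0 to 43.3%), against 19.1% (18.4 to 19.95%) of the others and a background of 23.9% over all autosomal peaks. This follows from the choice of crowded bins and is given as a measure of their texture. Members with such a neighbour on both sides numbered 143, or 6.95%, against 2.31% of the others. No peak within 20 kb was found for 448 members, 21.8%, against 56.0% of the others. None within 100 kb was found for 19 members, 0.92%, against 21.2% of the others. These contrasts follow from the same choice, and their shares over all autosomal peaks were not computed. The most separate member lay on chromosome 15 from 102794201 to 102798200, 238 kb from any other peak, in a bin of 24 peaks.

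Some of the peaks in dense bins formed short runs, in which neighbours were less than 5 kb apart. Of the members, 1212 or 58.9% were in no run, 515 (25.01%) were in a pair and 332 (16.1%, interval 14.6 to 17.8%) in a run of 3 or more. Of the other peaks of the width range, 80.9% were in no run and 13.4% in a pair. Over all 12542 autosomal peaks, 9542 were in no run. Fewer lone peaks among members follow from the choice of crowded bins. Runs of 3 or more held 5.73% of the other peaks of the width range and 8.16% of all autosomal peaks. The longest run with members had 9 peaks, 8 of them members, on chromosome 15 from 102032001 to 102113800, and its peaks covered 77.3% of its 81.8 kb. It lay in the same bin as the most separate member. Of the 2 autosomal runs of 7 peaks none touched a dense bin, and of the 6 runs of 6 peaks 3 did. Those 3 were on chromosome 10 from 80834801 to 80897600, on chromosome 12 from 88206001 to 88275400 and on chromosome 17 from 47648001 to 47683400. In the chromosome 17 run all 6 peaks were members, and they covered 83.1% of 35.4 kb.

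Peaks left parts of most dense megabases empty, and their spacing was not compared with random placement. Divided into segments of 100 kb, a dense bin had a median of 2 segments without a peak midpoint. In 19 bins every segment was occupied, in 47 bins 1 or 2 were empty and in 24 bins 3 or more. The fullest segment of a bin held between 4 and 8 peaks. The longest stretch between neighbouring peaks of a bin had a median of 153.7 kb and reached 200 kb in 25 bins. The longest of all, 522.6 kb, was in the bin at 71 to 72 Mb of chromosome 17, where 21 peaks left 4 segments empty. The median distance between neighbours ran from 4.0 kb at 102 to 103 Mb of chromosome 15 to 38.8 kb at 17 to 18 Mb of chromosome 16, whose 22 peaks were all members.

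The share of a dense megabase under peaks varied between bins. Members together covered 9.21 Mb, or 10.2% of the 90 Mb of dense bins, and 13.6% was covered when all peaks of these bins were counted. Per bin the members covered 64.6 to 175 kb, with a median of 100.4 kb. All peaks of a bin together covered 83.2 to 298.4 kb, with a median of 127.1 kb, and the highest values were those of the 2 bins with the most peaks, at 29.8% of the megabase on chromosome 10 (80 to 81 Mb) and 28.8% on chromosome 7 (52 to 53 Mb). The number of members per bin ran from 15, as at 107 to 108 Mb of chromosome 11, to 35.

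Dense megabases often lay side by side. The 90 bins formed 64 separate stretches, of which 46 were single bins and 18 joined 2 or more, and these 18 held 1068 members (51.9%). The longest stretches were 4 bins at 132 to 136 Mb of chromosome 4, with 116 peaks and 108 members, and 4 bins at 4 to 8 Mb of chromosome 19, with 105 peaks and 99 members. Stretches of 3 bins lay at 115 to 118 Mb (81 members) and 100 to 103 Mb (73 members) of chromosome 11, at 28 to 31 Mb of chromosome 7 (68 members) and at 27 to 30 Mb of chromosome 17 (68 members). At the other end, 9 dense bins had fewer than 10 peaks in both adjacent bins, and 6 bordered on a bin with no peak at all.

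The crowding faded over several megabases. Bins 1 Mb from a dense bin had a median of 14.5 peaks, those 2 Mb away 9, 3 Mb away 7, 5 Mb away 5 and 10 Mb away 4, beside the 3 of all autosomal bins. Part of the step from the dense bin itself (median 24) is fixed by the rule, which picked the bin for its number, and neighbours can be dense bins counted again. With dense bins left out, the bins 1 Mb before and 1 Mb after still had medians of 13 and 9.5 peaks (64 bins each).

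**Figure D4:**
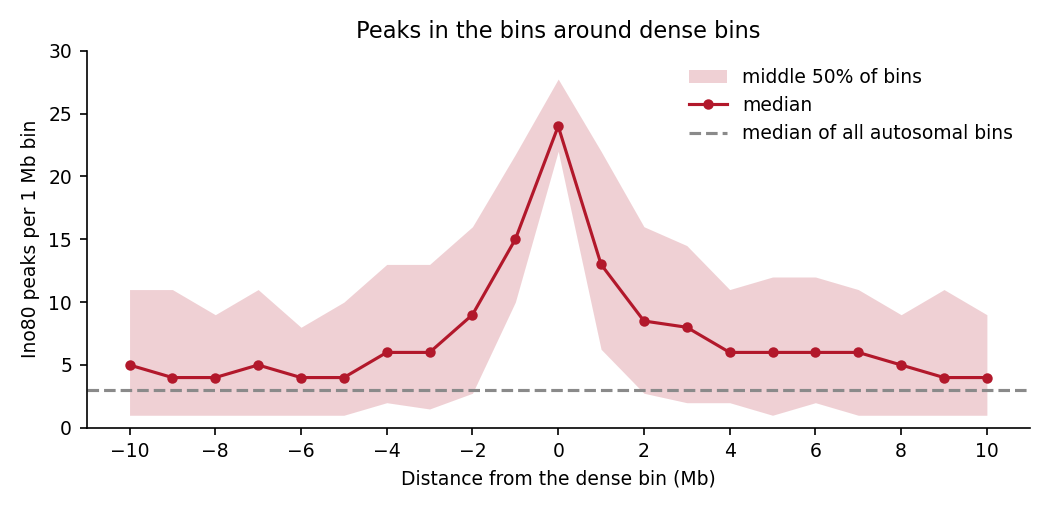
Ino80 peaks per 1 Mb bin against distance from the dense bin in Mb. The line is the median over 80 to 90 bins, the band holds the middle 50%, and the dashed line is the median of 3 over all autosomal bins; the median goes from 24 at the dense bin to 4 or 5 at 10 Mb.

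Every autosome had at least 1 dense bin, but the members were shared out unequally. Chromosome 11 had 13 dense bins and 308 members, chromosome 7 had 12 and 270, and chromosome 17 had 12 and 265. Together they held 40.9% of members and 20.9% of autosomal peaks. Chromosome 17 stood highest relative to its own list, with 39.97% of its 663 peaks being members, ahead of chromosome 19 at 31.3%, chromosome 11 at 29.6% and chromosome 7 at 29.3%. Chromosomes 12, 13 and 14 had 1 dense bin each, with 16, 19 and 22 members. Chromosome 2 had 992 peaks, the second most of any autosome, but only 2 dense bins and 46 members, 4.64% of its peaks.

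The 4 autosomes with the most protein-coding genes per Mb (7, 11, 19 and 17, at 11.5 to 13.6) also had the largest share of dense bins, 8 to 12.9%. They held 26.1% of autosomal protein-coding genes, 24.5% of autosomal peaks and 47.7% of members. The other 15 autosomes, at 5.76 to 10.01 genes per Mb, had 0.840 to 5.23% dense bins, and among them the 2 quantities went with r = 0.43 and rho = 0.55, a description of 15 points that share a divisor. Members per 1000 protein-coding genes came to 99.6 over all autosomes, from 22.9 on chromosome 13 to 250.2 on chromosome 17. Chromosomes 7 and 4 were close, at 133 and 143, although chromosome 7 had 13.6 genes per Mb and chromosome 4 had 8.73. Gene numbers are those of the GRCm38.p6 table for whole chromosomes, and whether genes lie in the dense bins was not examined. Members differed less between chromosomes in width than in number, with medians per chromosome of 3200 bp (chromosome 16) to 5200 bp (chromosome 12, 16 members).

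**Figure D5:**
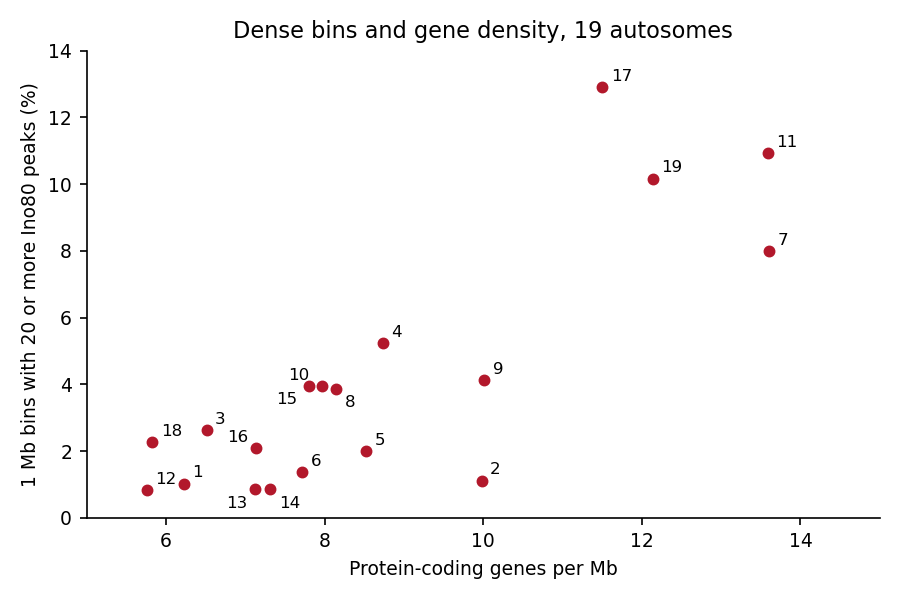
Share of 1 Mb bins with 20 or more Ino80 peaks (%) against protein-coding genes per Mb (GRCm38.p6 gene numbers over the mm9 span of the peaks), 1 point per autosome, labelled by its number. Chromosomes 17, 11, 19 and 7 lie apart at 8 to 12.9%, and chromosome 2 is low for its 9.98 genes per Mb.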

How the data were processed

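Peaks of 1 Ino80 ChIP-seq library were analysed. The list was assigned to that sample because its name carries the sample's title. As deposited by the authors it holds a name, chromosome, start, end and a constant sign per peak. Per the submitters' processing notes, the tools were SICER 1.1 (a caller that joins enriched windows), Bowtie 0.12.8, CASAVA 1.7 and bedtools. The notes list hg19 beside mm9, with no roles, and the mouse build was assumed. The control library, pooling and settings of the caller were not given in the sources used here. Ends lie on a grid of 200 bp read as counted from 0 and inclusive, so 1 bp was added to printed coordinates. The shortest distance between peaks is 1000 bp. Distances run from edge to edge and count peaks of any width.

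Tables were made with Python 3.11.15, pandas 2.3.3, NumPy 2.4.6 and SciPy 1.17.1, tested on simulated lists. Named regions are the 10 bins with the most peaks, their widest and narrowest members, and the first 5 on each side of each limit. Other regions named as extremes were chosen after their values were seen. The members and the planned gene lists were chosen with earlier results of these data known. Planned results on transcription starts, base composition and motifs needed an mm9 genome and were not run.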

Additional observations from a re-analysis of the deposited data

How the results depend on the processing

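The number of dense bins and members depended on the limits. With 15 peaks as the limit there were 189 bins and 3601 members, with 25 peaks 41 bins and 1087 members, and with bins of 500 kb and a limit of 10 peaks 282 bins and 3355 members. When peaks less than 5 kb apart were joined first, 39 bins and 693 members were left. Bins shifted by 500 kb gave 102 dense bins and 2339 members, of which 1492 were the same peaks, 72.5% of the members and 63.8% of the shifted set. The median width was 4400 bp without width limits. The median distance to the nearest peak was 9000 bp and the share with a neighbour under 5 kb 35.9% at a limit of 15 peaks. The median share of a dense bin covered by members, 10.04%, was 7.74% at a limit of 15, 11.9% at 25 and 12.7% without width limits. The number of bins after joining, and the numbers of bins (77) and members (1751) without chromosome 11, were added after seeing the data. The other 19 of 33 alternatives, among them those without chromosome 11, stayed within 1.5 times a count or within the interval of a median or share. For some counts this was fixed beforehand and shows no stability. Leaving out chromosome 11 only removed its 13 bins and 308 members. Lifting the width limits only brought the members to the 2294 peaks of the same bins. No alternative that needs a genome was run. No paired analysis was possible because no group was compared with another. The list gives no depth or score, so no stricter threshold on strength could be set.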

Other observations

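The shortest distances were the most frequent of those up to 2 kb. Of the 2204 distances between neighbouring peaks of the same dense bin, 96 (4.36%) were 1000 bp, the shortest in the list, 68 were 1200 bp, 49 were 1400 bp, 37 were 1600 bp and 36 were 1800 bp. In other bins 210 of 8358 (2.51%) were 1000 bp, 136 were 1200 bp and 93 were 1400 bp. Distances under 2 kb made up 12.98% (interval 11.6 to 14.5%) in dense bins and 6.75% (6.22 to 7.31%) elsewhere. Shorter distances in dense bins follow from the rule, and their median was 15000 bp against 41200 bp in other bins. Whether such neighbours are separate sites or parts of 1 domain was not tested, and the list holds no signal between peaks.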
